A study of Bos grunniens with 6 samples.

Results

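SOD3, PCOLCE2 and IGFBP4 are genes of 3 secreted proteins that were followed here in testis of the yak (Bos grunniens) before and after sexual maturity. They are 3 of 20953 genes in the deposited expression table. SOD3 (ENSBGRG00000014092) and PCOLCE2 (ENSBGRG00000000254) were found by the symbols that the study's supplementary tables pair with gene identifiers, and IGFBP4 by its identifier, ENSBGRG00000017437. All 3 genes were chosen by the FPKM measured in these libraries, as genes whose expression fell between the ages, and IGFBP4 also belongs to the genes that the study listed for a joint change of m6A and mRNA. Their levels at the 2 ages are therefore a description and carry no test.

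The Y6M group was 3 healthy juvenile yaks of 6 months, before sexual maturity, and the Y30M group was 3 sexually mature yaks of 30 months. The labels name no allele, drug or other treatment for either group, and all 6 animals were castrated to obtain testicular parenchyma. Each yak was a separate animal and gave an input library of fragmented poly(A) RNA and a library immunoprecipitated with an antibody against N6-methyladenosine (m6A), the methyl mark found inside many mRNAs. Expression is the FPKM of the input library, a fragment count corrected for transcript length and for how many reads were mapped, and m6A is given as peaks, the stretches where immunoprecipitated reads exceed input reads.

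SOD3 is the extracellular superoxide dismutase, which converts superoxide to hydrogen peroxide and oxygen outside the cell and is held near the cell surface and matrix by heparan sulfate. PCOLCE2 is a procollagen C-endopeptidase enhancer: it binds procollagen and helps proteases of the BMP1 family to cut off the C-terminal propeptide before collagen fibrils form. IGFBP4 binds insulin-like growth factors and keeps them from their receptor until it is itself cut by the protease PAPPA. In the testis, Sertoli cells inside the tubules and Leydig, myoid, endothelial and immune cells around them are the somatic cells that can secrete such proteins, while germ cells multiply with maturity.

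IGFBP4 was the one of these genes for which the study designed a quantitative PCR assay on the same tissue, so its primer pair is shown as the sequence by which the transcript was recognised. Both primers are 20 bases long, with a GC content of 60.0% for the forward and 55.0% for the reverse primer, and the PCR readings were not used here. They read, 5′ to 3′:
IGFBP4-F: catggagctggcagagatcg
IGFBP4-R: taaaggtcttcgtgggtgcg

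The input libraries were of similar depth. With Y30M replicate 1 set to 1, the relative depths read from the steps of the FPKM values ran from 0.752 in Y6M replicate 3 to 1.07 in Y30M replicate 2. FPKM summed to 683860 to 702780 in Y6M and to 587930 to 624020 in Y30M. On the second principal component of all genes, which held 7.38% of the variance, the libraries numbered 3 lay at -43.0 (Y6M) and -52.5 (Y30M) while the other 4 lay between 13.0 and 36.2. The libraries numbered 3 thus stood apart from the rest at both ages, and levels without them are given below where they move a result.

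SOD3 was among the most abundant transcripts of the juvenile testis and far less abundant in the mature testis. Juvenile FPKM was 1718 in replicate 1, 1647 in replicate 2 and 607.5 in replicate 3, against 18.4, 14.2 and 10.5 in the mature libraries of the same numbers. Every Y6M library lay far above every Y30M library, and replicate 3 was the lowest at both ages. The juvenile mean was 1324 ± 622 FPKM and the mature mean 14.4 ± 3.96 FPKM (SD over 3 yaks at each age), a ratio of 91.95. Even the lowest Y6M library was 32.95 times the highest Y30M library. In bulk tissue, a changed share of a cell type and changed RNA per cell cannot be told apart, and this holds for each difference below.

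Within the libraries, SOD3 ranked 63rd of 16995 genes above 0 in Y6M replicate 1, 64th of 17295 in replicate 2 and 129th of 16947 in replicate 3. In Y30M it ranked 5572nd of 17816, 5737th of 17677 and 7639th of 18052. It took 0.251, 0.241 and 0.0864% of the summed FPKM of the Y6M libraries. The gene was in the top 1% of juvenile transcripts and at 31.3, 32.5 and 42.3% from the top in the mature libraries, where it still lay above the median gene.

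PCOLCE2 stood below SOD3 in each juvenile library and was the lowest of the 3 genes in mature testis. Juvenile FPKM was 120 in replicate 1, 75.2 in replicate 2 and 289 in replicate 3, against 7.05, 3.32 and 5.38 in the mature libraries. The groups did not overlap, and the Y6M libraries differed among themselves by 3.84-fold, the widest spread of the 3 genes. Averages of 161 ± 113 FPKM for juvenile and 5.25 ± 1.87 FPKM for mature yaks (SD, n = 3) gave a ratio of 30.8. Single Y6M libraries were 10.7 to 87.1 times single Y30M libraries. PCOLCE2 ranked 690th, 1095th and 256th in the Y6M libraries and 8950th, 10214th and 9836th in the Y30M libraries.

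IGFBP4 differed least between the ages and was the most even of the 3 genes within the juvenile group. Juvenile replicates 1, 2 and 3 had 119.95, 101 and 120 FPKM, and the mature ones 31.5, 17.3 and 24.2 FPKM. The groups again did not overlap, and the Y6M libraries lay within 1.19-fold of each other. Averages were 114 ± 10.9 FPKM for juvenile and 24.3 ± 7.14 FPKM for mature yaks (SD, n = 3), a ratio of 4.68, with single pairs of libraries between 3.22 and 6.98. IGFBP4 remained in the upper part of both age groups, at rank 689, 821 and 656 in Y6M and 3753, 5120 and 4695 in Y30M.

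**Figure D1:**
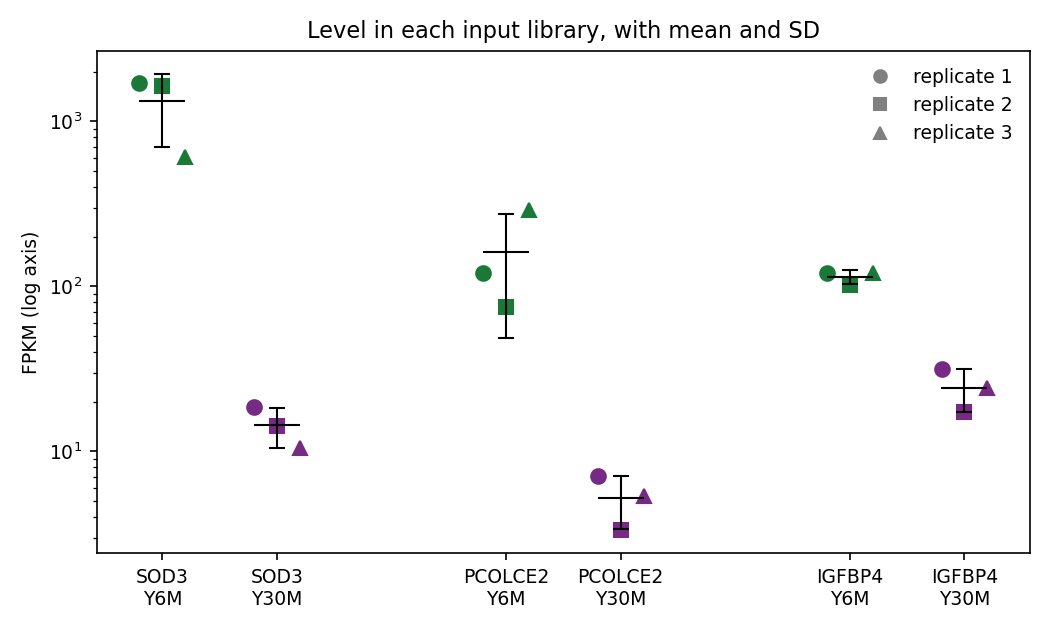
FPKM on a log axis of SOD3, PCOLCE2 and IGFBP4 in each input library, with marker shape for the replicate number, a horizontal line at the mean of 3 libraries and bars of 1 SD. The Y6M libraries of each gene lie above its Y30M libraries, with 1324, 161 and 114 FPKM on average against 14.4, 5.25 and 24.3.

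On the log2(FPKM + 1) scale, the difference of the group means, Y30M minus Y6M, was -6.32 for SOD3, -4.52 for PCOLCE2 and -2.22 for IGFBP4. Among the 19477 genes above 0 in at least 1 library, 8886 had a difference below 0, and from the most negative up SOD3 was number 9, PCOLCE2 number 25 and IGFBP4 number 685. Of all these genes, 4270 (21.9%) had every Y30M library below every Y6M library, as these 3 had. By limma, with calls made at an unadjusted p up to 0.05 and a change of 1.5-fold or more, 9080 genes (46.6%) were called, 3702 (19.0%) lower in Y30M and 5378 (27.6%) higher. Since the difference between the ages chose the 3 genes, nothing is read from these shares about them.

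The order of the 3 genes changed between the ages. In Y6M replicates 1 and 2, SOD3 was 14.3 and 16.2 times IGFBP4, and in replicate 3 it was 5.04 times. In Y30M the same ratio was 0.584, 0.825 and 0.434, so that IGFBP4 was the highest of the 3 in each mature library. PCOLCE2 and IGFBP4 could not be ordered in the juvenile testis: their ratio was 1.00, 0.742 and 2.40 in the 3 Y6M libraries. In Y30M, PCOLCE2 was 0.223, 0.192 and 0.222 of IGFBP4, a lower level in each library. SOD3 exceeded PCOLCE2 in all 6 libraries, by 2.10- to 21.9-fold in Y6M and 1.95- to 4.29-fold in Y30M.

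Y6M replicate 3 set SOD3 and PCOLCE2 apart from each other. As deviations from the group mean of log2(FPKM + 1), SOD3 was at 0.52, 0.46 and -0.98 in Y6M replicates 1, 2 and 3, and PCOLCE2 was at -0.20, -0.86 and 1.06. SOD3 was thus lowest where PCOLCE2 was highest, while IGFBP4 stayed within 0.08, -0.16 and 0.08. Compared with the mean of the other 2 Y6M libraries, SOD3 was 2.77-fold lower and PCOLCE2 2.96-fold higher in replicate 3. Of 12414 genes with a mean of at least 1 FPKM in Y6M, 209 (1.68%) were as low there as SOD3 and 416 (3.35%) as high as PCOLCE2. Replicate 3 was the lowest Y6M library for 38.2% of these genes and the highest for 50.0%. In Y30M the pattern differed: replicate 1 was the highest library for each gene, at 0.37 for SOD3, 0.41 for PCOLCE2 and 0.40 for IGFBP4.

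**Figure D2:**
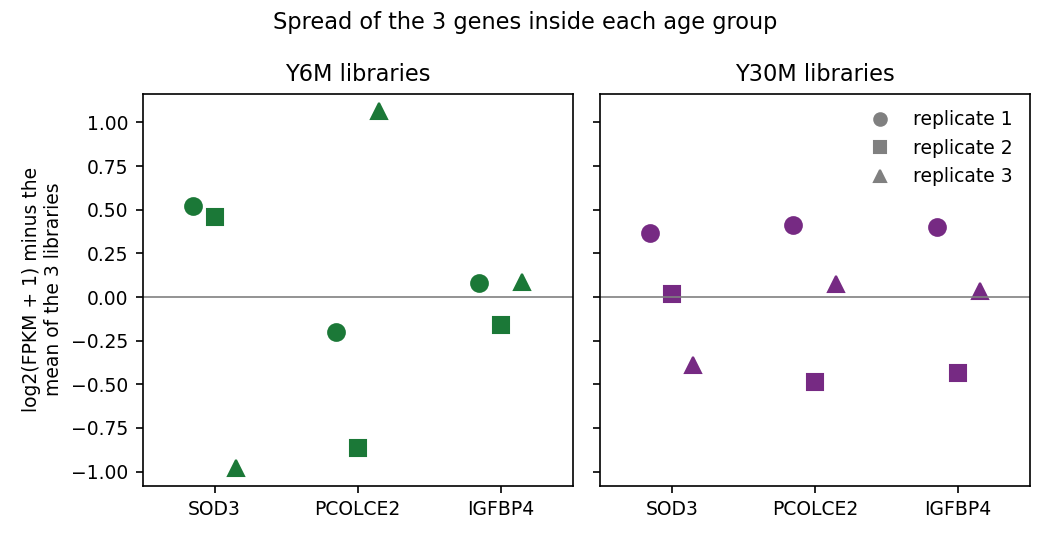
Deviation of log2(FPKM + 1) from the mean of the 3 libraries of its own age group, for Y6M (left) and Y30M (right), 1 point per library with the shape giving the replicate number. In Y6M replicate 3, SOD3 lies at -0.98 and PCOLCE2 at 1.06, while IGFBP4 lies at 0.08.

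Without Y6M replicate 3 the log2 difference was -6.80 for SOD3 and -3.99 for PCOLCE2, and without both libraries numbered 3, a choice made after the data were seen, it was -6.61, -4.03 and -2.19 for SOD3, PCOLCE2 and IGFBP4. With libraries of the same number set against each other, SOD3 was 93.2, 116 and 57.8 times higher in Y6M for numbers 1, 2 and 3. PCOLCE2 was 17.0, 22.7 and 53.7 times higher, and IGFBP4 3.80, 5.87 and 4.98 times. The number 3 pair thus gave the lowest ratio for SOD3 and the highest for PCOLCE2.

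The counts behind these values were large enough that counting error was small beside the spread between yaks. FPKM values of the 6 libraries resolved into whole fragments, with the largest deviation from a whole number at 5.2e-05 against a tolerance of 0.01, and the smallest solution is given since the true numbers may be a multiple of it. SOD3 then had 126555, 137750 and 36927 fragments in Y6M and 1491, 1230 and 890 in Y30M. PCOLCE2 had 5024, 3578 and 9995 in Y6M and 324, 163 and 259 in Y30M, and IGFBP4 7217 to 8707 and 1469 to 2514. The least precise value was PCOLCE2 in Y30M replicate 2, where 163 fragments give 3.32 FPKM with an exact 95% Poisson interval of 2.83 to 3.87 that covers counting error only.

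The other genes of the 3 pathways were taken from lists of known members, of which only those that the study's supplementary tables name could be matched. Those tables hold genes that changed in expression or that carry a methylated peak, and of the 2144 named genes tested 59.4% were called against 46.6% of all genes, so a count in a list is to be read against both. Of the named genes in the study's table of changed genes, which was made on these libraries, 84.9% were called here, so calls of such genes are not independent of that choice. The median log2 difference was 0.07 over the named genes and 0.04 over all genes. Values that follow are Y30M minus Y6M on the log2(FPKM + 1) scale with the SE of limma after ±, levels in FPKM carry the SD of 3 yaks after ±, and adjusted p is Benjamini-Hochberg over the 19477 genes.

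Of 28 antioxidant enzymes, 3 were matched, of which 2 fell and 1 was not called. HMOX1, which breaks down heme, fell by 1.34 ± 0.30, from 40.3 ± 7.03 to 15.8 ± 5.33 FPKM (adjusted p = 0.0094 by limma). NQO1, a quinone reductase, went from 10.5 ± 2.68 to 5.60 ± 2.38 FPKM and fell by 0.84 ± 0.35 at an unadjusted limma p of 0.0474, with an adjusted p of 0.0929. Its groups overlapped, since Y6M replicate 3 read 7.93 and Y30M replicate 3 read 8.28 FPKM. With the replicate number as a block the call was lost (adjusted p = 0.102 by limma). SOD1, the cytosolic superoxide dismutase, had 208, 285 and 123 FPKM in juvenile and 158, 90.1 and 134 FPKM in mature yaks, and its difference of -0.64 ± 0.36 was not called (adjusted p = 0.191 by limma). Those SOD1 groups overlapped through Y6M replicate 3, and without that library the difference was -0.97 and was called. The list's median was -0.84.

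SOD1 and SOD3 can be set side by side per length of transcript. In Y6M, SOD3 was above SOD1 in each library, at 607.5 to 1718 against 123 to 285 FPKM, and in Y30M it was below, at 10.5 to 18.4 against 90.1 to 158 FPKM. The cytosolic enzyme was therefore the more abundant dismutase transcript of the mature testis among the pair, and the extracellular one of the juvenile testis. The mitochondrial enzyme was not analysed here.

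Of 20 genes of the IGF system other than IGFBP4, 3 were matched, of which 1 fell, 1 rose and 1 was not called. IGF1, the ligand, had 2.70, 3.05 and 5.99 FPKM in juvenile and 1.33, 0.742 and 1.47 FPKM in mature yaks, and fell by 1.13 ± 0.33 (adjusted p = 0.0272 by limma). IGFBPL1, which resembles the binding proteins, was near 0 in Y6M at 0.0528 to 0.240 FPKM and reached 0.614 to 1.61 FPKM in Y30M, a rise of 0.88 ± 0.18 (adjusted p = 0.00605 by limma). IRS2, an adaptor below the IGF1 and insulin receptors, had 7.87 ± 0.715 FPKM in Y6M and 4.59 ± 1.52 FPKM in Y30M. Its groups did not overlap and its difference of -0.70 ± 0.30 was not called (adjusted p = 0.1 by limma), while with the replicate number as a block it was called at the unadjusted threshold (adjusted p = 0.0829 by limma). IRS2 was also called with median-of-ratios factors, with a filter of at least 1 FPKM on the mean and without Y30M replicate 1. Both called genes, IGF1 and IGFBPL1, have their names from the study's table of changed genes. The median of the 3 genes was -0.70. IGFBP4 was 20.1 to 44.5 times the IGF1 transcript in Y6M and 16.5 to 23.7 times in Y30M per length.

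Of 33 genes for fibrillar collagens and their maturation, 5 were matched and 4 fell. COL5A1 and COL5A2 encode chains of collagen V, which is built into fibrils together with collagen I. COL5A1 fell by 3.48 ± 0.33, from 37.2 ± 6.47 to 2.58 ± 1.45 FPKM (adjusted p = 0.000199 by limma). COL5A2 fell by 2.20 ± 0.30, from 12.1 ± 0.953 to 1.91 ± 0.684 FPKM (adjusted p = 0.00101 by limma), and a further chain, COL5A3, fell by 1.17 ± 0.25 (adjusted p = 0.00784 by limma). P3H1, a prolyl 3-hydroxylase of procollagen in the endoplasmic reticulum, fell by 2.16 ± 0.23, from 158 ± 37.2 to 34.1 ± 3.62 FPKM (adjusted p = 0.000337 by limma). COL11A2, a chain of collagen XI, was at 7.99 ± 4.54 and 8.84 ± 3.05 FPKM, and its difference of 0.23 ± 0.46 was not called (adjusted p = 0.725 by limma) and took the other sign, -0.20, without Y6M replicate 3. The list's median was -2.16. The 4 calls were present under each alternative that was run.

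Of 52 other matrix proteins and matrix proteases, 16 were matched, of which 12 fell, 3 rose and 1 was not called, with a median of -1.29. The collagen VI chains COL6A1 and COL6A2, which form beaded filaments near basement membranes, were the most abundant. COL6A1 fell by 2.85 ± 0.22, from 211 ± 9.76 to 29.0 ± 7.54 FPKM (adjusted p = 8.17e-05 by limma), and COL6A2 fell by 2.38 ± 0.23, from 274 ± 51.4 to 52.0 ± 11.2 FPKM (adjusted p = 0.00022 by limma). FBLN1, a matrix glycoprotein, fell by 1.88 ± 0.26, from 101 ± 15.9 to 27.3 ± 9.16 FPKM (adjusted p = 0.00115 by limma), and MMP19, a matrix metalloproteinase, fell by 1.84 ± 0.28 (adjusted p = 0.00164 by limma). The ADAMTS group of secreted proteases and protease-like proteins was divided. ADAMTS1 (-1.44), ADAMTS4 (-0.93), ADAMTS18 (-0.92) and ADAMTSL4 (-1.73) were called lower, ADAMTS5 was not called, and the 3 genes of the list that rose also belong to it. The call of ADAMTS18 was at the unadjusted threshold only (adjusted p = 0.0717 by limma). ADAMTSL5 went from 0.645 ± 0.212 to 11.2 ± 0.619 FPKM, a rise of 2.90 ± 0.27 (adjusted p = 0.000162 by limma). ADAMTS16 went from 0.303 ± 0.132 to 3.92 ± 0.792 FPKM, a rise of 1.91 ± 0.21 (adjusted p = 0.000404 by limma), and ADAMTSL1 rose by 1.67 (adjusted p = 0.00679 by limma). Of these 16 genes, 9 are named in the study's table of changed genes.

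**Figure D3:**
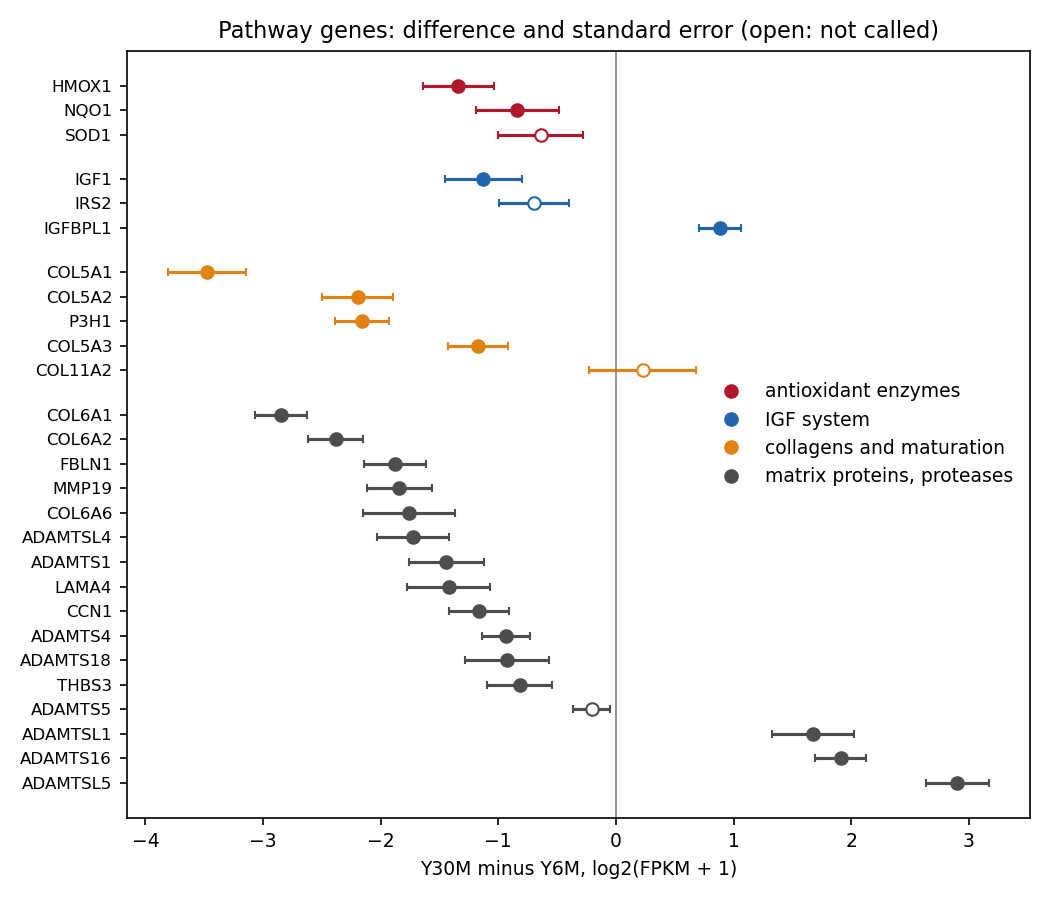
Difference Y30M minus Y6M in log2(FPKM + 1) with its standard error from limma for every matched gene of the 4 lists, filled where called and open where not. The collagen V and VI chains and P3H1 lie between -3.48 and -1.17, and ADAMTSL5, ADAMTS16, ADAMTSL1 and IGFBPL1 lie above 0 with a call; COL11A2 lies at 0.23 and changes sign without Y6M replicate 3.

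Markers of Sertoli, Leydig and endothelial cells fell alongside the 3 genes. Over all genes tested, 19.0% were called lower and 27.6% higher, and of the named genes 59.4% were called in either direction. For Sertoli cells 3 of 12 markers were matched and all 3 were called lower, with a summed FPKM of 108 to 125 in Y6M and 25.8 to 45.2 in Y30M. SOX9, a Sertoli transcription factor, went from 38.1 to 20.1 FPKM and the receptor FSHR from 41.5 to 7.23 FPKM. For Leydig cells 1 of 8 was matched, the receptor LHCGR, at 34.4 to 67.3 FPKM in Y6M and 1.44 to 5.37 in Y30M. The 3 matched endothelial markers of 8 were called lower, with sums of 17.4 to 25.8 and 5.16 to 8.13 FPKM. Of the 2 matched smooth muscle and myoid markers of 8, ACTG2 was called higher at 1.34, though not without Y6M replicate 2 (1.08), and SMTN was not called, at -0.13 with the other sign after rescaling to equal sums, and their sum was 14.3 to 19.9 FPKM in Y6M and 17.1 to 30.9 in Y30M.

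Within the juvenile group these markers did not move together. DHH, a Sertoli ligand, read 44.6, 42.5 and 19.2 FPKM in replicates 1, 2 and 3 and was lowest in replicate 3, where SOD3 was lowest. SOX9, at 39.7, 40.8 and 33.8 FPKM, was also lowest there. FSHR read 40.3, 24.9 and 59.4 FPKM and LHCGR 39.7, 34.4 and 67.3 FPKM, lowest in replicate 2 and highest in replicate 3 as PCOLCE2 was. The endothelial markers PECAM1, CDH5 and TEK, and ACTG2 and SMTN, were highest in replicate 3 too. Of all genes with a mean of at least 1 FPKM in Y6M, 50.0% were highest and 38.2% lowest in replicate 3 of that group. Whether the makeup of that piece of tissue bears on SOD3 or PCOLCE2 was not tested.

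Immune and spermatocyte markers were highest in the libraries numbered 3. CD48, a leukocyte surface protein, read 6.99, 12.6 and 46.9 FPKM in the juvenile and 2.99, 1.96 and 11.7 FPKM in the mature replicates 1, 2 and 3. CD84 read 2.32, 1.82 and 11.5 FPKM, then 0.611, 0.396 and 3.23 FPKM. Both were highest in replicate 3 at each age, the library in which SOD3 was lowest. Of the 3 matched immune markers of 9, CD4 alone was called lower, at the unadjusted threshold only (adjusted p = 0.0669 by limma). Its levels were low, from 0.272 to 2.03 FPKM, and its groups overlapped. The call of CD4 was lost without Y6M replicate 2 or 3 or Y30M replicate 1 or 2, and CD48 and CD84 were not called. In the fit with the replicate number as a block both were called, CD48 with an adjusted p = 0.00479 by limma and CD84 with an adjusted p = 0.0101 by limma. That block rests on a pairing seen in these data and not on the labels, and the yaks were separate animals. CD48 was also called under several other settings, among them a pseudocount of 0.1 and median-of-ratios factors, and CD84 without Y30M replicate 3. The summed level of the 3 was 9.82 to 60.4 FPKM in Y6M and 2.67 to 15.5 FPKM in Y30M.

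Of the 4 matched germ cell markers, 2 were called and both were higher in Y30M, beside 27.6% of all genes tested. These 2, ACRBP and SYCP3, are the ones named in the study's table of changed genes. ACRBP, an acrosomal protein and the 1 matched spermatid marker of 10, rose from 2.39 to 4.49 FPKM in Y6M to 142 to 265 FPKM in Y30M. Of the 3 matched spermatocyte markers of 8, SYCP3 was called higher by 2.12, and MLH3 and HORMAD1 were not called. MLH3 was at 0.79 and was called in the fit with the replicate block (adjusted p = 0.0692 by limma), after TPM rescaling and without Y30M replicate 2. HORMAD1 was at 0.16, and took the other sign without Y6M replicate 1, without Y30M replicate 3 or without both libraries numbered 3. SYCP3 read 1.91, 1.97 and 5.27 FPKM in juvenile replicates 1, 2 and 3 and 15.8, 7.18 and 31.4 FPKM in mature ones, and like HORMAD1 and MLH3 it was highest in replicate 3 at both ages. Their sum ran from 11.4 to 32.3 FPKM in Y6M and from 17.1 to 79.6 FPKM in Y30M. No spermatogonial marker of 9 was matched. None of the matched markers was at 0 in any library, and the part that the makeup of the tissue had in the levels of SOD3, PCOLCE2 and IGFBP4 was not tested.

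Genes whose pattern lay nearest to each of the 3 were sought among 2000 genes with a symbol and a mean of at least 1 FPKM. The measure was the root mean square difference, over the 6 libraries, of log2(FPKM + 1) centred on the gene's own mean. IGFBP4 had close neighbours: COL5A2 at 0.111, the receptor NOTCH2 at 0.114 and the orphan receptor GPR37 at 0.116. NOTCH2 went from 63.1 ± 4.90 to 13.1 ± 5.16 FPKM and GPR37 from 69.9 ± 14.0 to 13.8 ± 3.46 FPKM. For PCOLCE2 the nearest were INHBA, an activin and inhibin subunit, at 0.569, the glucosyltransferase POGLUT3 at 0.627 and the PDZ domain gene PDZD2 at 0.640. INHBA read 93.6, 93.3 and 129 FPKM in juvenile and 5.32, 3.93 and 8.46 FPKM in mature yaks. It too was highest in replicate 3 of Y6M, as were 50.0% of genes with a mean of at least 1 FPKM there. In Y30M, INHBA was highest in replicate 3 and PCOLCE2 in replicate 1.

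By this measure, which also counts the size of the difference between the ages, SOD3 had no close neighbour among the named genes. The adhesion receptor ADGRG1 was nearest at 1.22, followed by PDZD2 at 1.33 and PCOLCE2 at 1.40. ADGRG1 read 254, 237 and 185 FPKM in juvenile and 16.2, 12.6 and 11.1 FPKM in mature yaks. Its replicates had the same order as those of SOD3 at both ages, with a smaller difference of -3.99. The Pearson r of ADGRG1 with SOD3 over the 6 libraries was 0.996, beside 0.995 for COL5A2 with IGFBP4. Such an r mostly follows the difference between the ages, by which the 3 genes were chosen, and is no evidence of a shared pattern. PCOLCE2 reached 0.919 with SOD3 although the 2 deviated in opposite directions in Y6M replicate 3. Of all genes with or without a symbol, 43 lay nearer to SOD3 than ADGRG1 did.

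The m6A peaks of the 3 genes were then read from the authors' table of peaks called over both ages together, in which fold enrichment is the immunoprecipitated over the input signal. SOD3 had 2 peaks, IGFBP4 had 1 and PCOLCE2 had none by name. Of 8809 genes with a peak, 52.6% had 1 and 27.9% had 2. The table gives 1 value for a peak and none for a single yak, so these values have no replicate error.

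Both SOD3 peaks lie on the minus strand of chromosome 6 (LU_Bosgru_v3.0), each in 1 exon block, 850 bases apart. The longer, chr6:80406430-80406877, spans 448 bases with a fold enrichment of 2.15 and an FDR of 3.98e-15 for its enrichment over input. The shorter, chr6:80407728-80407877, spans 150 bases with a fold enrichment of 1.59 and the same FDR. Both enrichments lay below the median of 2.31 over 16318 peaks, above 42.9% and 14.7% of them. Both peaks were in the list of the Y6M group with identical ends, as were 23.9% of all peaks. The position within coding sequence or UTR was not analysed here.

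The IGFBP4 peak, chr19:25616251-25617161 on the minus strand, joined 2 exon blocks of 81 and 67 bases with 763 bases between them. Its fold enrichment was 1.72, above 21.6% of peaks, and its FDR was 0.637, so that its enrichment over input did not pass 0.05, as 69.0% of peaks did. No peak of the Y6M list overlapped it, whereas 75.4% of all peaks and 60.2% of the 5061 peaks with an FDR above 0.05 had such an overlap. The Y30M lists of chromosomes 6 and 19 were not used here, so the presence of these peaks in the Y30M list is not stated.

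PCOLCE2, at 161 FPKM in Y6M, had no peak by name among the peaks called over both ages. Its peaks were sought by gene name, and 267 of the 16318 peaks carry no gene, so an absence of m6A is not shown. The share of genes with a peak was not highest among the most abundant. Of the 658 genes with a Y6M mean of 100 to 500 FPKM, which hold PCOLCE2 and IGFBP4, 264 (40.1%) had a peak. Above 1000 FPKM, where SOD3 lies, 28 of 91 genes (30.8%) had one. The share was highest, 68.7%, at 10 to 50 FPKM and was 11.6% at up to 1 FPKM.

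The Y6M list also scores adenosines within a peak between 0 and 1 for the likelihood of methylation, and calls a site from 0.528 up. The longer SOD3 peak held 7 scored adenosines, of which 4 were called sites. Their scores were 0.529, 0.596, 0.56 and 0.564, at 40, 88, 134 and 267 bases from the lower end of the peak, and the other 3 scored 0.403 to 0.492. The site at 0.529 was labelled low confidence and the remaining sites moderate confidence. All are predicted sites and not measured methylation of a base. The shorter peak held 3 scored adenosines at 0.463 to 0.496 and no site, as in 11.3% of the Y6M peaks. All 4 sites scored below 0.6, a score that 9.27% of the 2035099 scored adenosines reached, while 21.5% were sites.

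**Figure D4:**
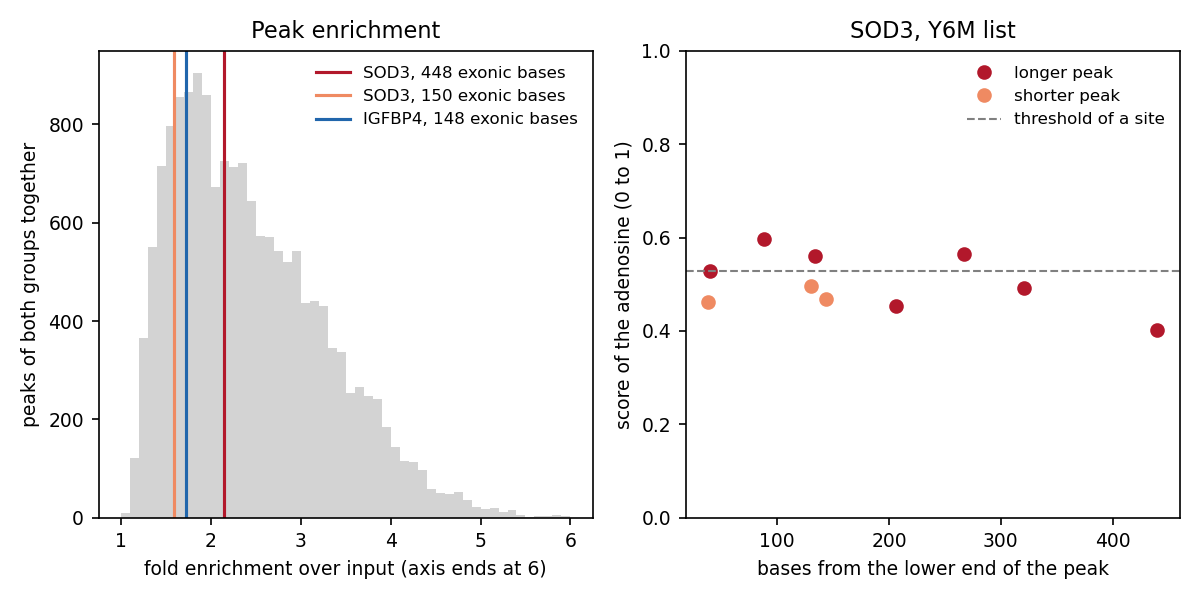
Left, histogram of the fold enrichment over input of the peaks called over both ages (axis ending at 6), with lines at the SOD3 peaks (2.15 and 1.59) and the IGFBP4 peak (1.72). Right, score of each scored adenosine in the SOD3 peaks of the Y6M list against bases from the lower end of the peak, with the site threshold of 0.528 dashed: 4 points of the longer peak and none of the shorter reach it.

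In the RefSeq annotation of another yak assembly, Bosgru_T2T1.0, used for neighbours only, SOD3 lies between CCDC149 and DHX15 on chromosome 6 and IGFBP4 between TNS4 and TOP2A on chromosome 19. PCOLCE2 lies between TRPC1 and PAQR9 on chromosome 1. None of the 3 overlaps another protein-coding gene there, and the sequences of the peaks were not analysed here.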

How the data were processed

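Testis RNA of 3 Y6M and 3 Y30M yaks was sequenced as input and m6A immunoprecipitated libraries. Per the study's methods the authors trimmed reads with Trimmomatic, removed ribosomal reads with SortMeRNA, aligned the rest with HISAT2 to LU_Bosgru_v3.0 and called peaks with MeTDiff with input as control. The deposited peak files give 1 value for a peak of a group or of both groups, and none for a single yak. The deposited FPKM of each gene and input library was used as the authors gave it, and the tool behind it is not given in the sources used here. The deposited peak table holds a fold enrichment, which is a ratio of immunoprecipitated over input signal, and a log10 FDR score as the authors' peak caller wrote them, with the number of exon blocks. Its columns of the difference between the ages (log2 fold change, p and FDR) hold the study's own comparison and were not used. The deposited site lists hold a score from 0 to 1 for each adenosine, by a tool not given in the sources used here. The Y30M list covered chromosomes 1 and 2, and the rest was not used here.

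Genes above 0 in at least 1 library were tested on log2(FPKM + 1) with limma 3.58.1 in R 4.3.3 (lmFit, eBayes with trend, two-sided), and a gene was called at an unadjusted p up to 0.05 and a change of 1.5-fold or more on that scale, the thresholds of the study, with Benjamini-Hochberg adjustment given beside. The pseudocount understates the change of low genes. Other values were computed in Python 3.11.15, with Poisson intervals from SciPy 1.17.1. Alternatives were a pseudocount of 0.1, a mean of at least 1 FPKM, FPKM rescaled to equal sums (TPM), median-of-ratios factors, the replicate number as a block, each library left out, adjusted p, a fold change of at least 2, other peak and score thresholds and, added after seeing the data, both libraries numbered 3 left out.

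Same-numbered libraries deviated together across genes (r = 0.209, 0.283 and 0.604 for numbers 1, 2 and 3, each above 0.1). The main fit was unpaired, and an alternative fit used the replicate number as a block. That pairing comes from the data and not from the labels. Differently numbered libraries ran from -0.474 to 0.322, and Y6M replicate 1 correlated more with Y30M replicate 2 (0.322) than with its own number, so that number 3 alone stood clearly apart. The members and the lists (antioxidant enzymes, IGF system, fibrillar collagens and procollagen maturation, other matrix genes, and 8 lists of cell markers) were chosen with earlier results of these data known. Symbols came from the study's supplementary tables, which pair 2147 identifiers with names. All matched genes of a list were named where at most 6 were matched, otherwise the 6 with the largest change, 3 for marker lists, and the 3 nearest patterns of each member. ADAMTS1, ADAMTS4, ADAMTS5, ADAMTS18, ADAMTSL1, ADAMTSL4 and COL6A6 lie outside that rule and were named after their values were seen.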

Additional observations from a re-analysis of the deposited data

How the results depend on the processing

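The levels of SOD3, PCOLCE2 and IGFBP4 kept their direction under each alternative, with log2 differences of -6.80 to -6.06, -4.95 to -3.99 and -2.42 to -2.0 when single libraries were left out and -6.17, -4.43 and -2.05 after rescaling to TPM. The number of called genes was 9080, and 8157 to 9090 with a library left out, 9909 with the replicate block, 8129 at an adjusted p of at most 0.05 and 7111 at a fold change of at least 2. Of the antioxidant list, 2 genes were called, and 1 after TPM rescaling, with the replicate block, at the adjusted p or at a fold change of at least 2. With a library left out it was 1 to 3: 1 without Y6M replicate 1 or 2 or Y30M replicate 1 or 2, and 3 without Y6M replicate 3. NQO1 is the gene lost in these cases and SOD1 the gene gained. Of the IGF list 2 were called, 1 at a fold change of at least 2, and 3 with the replicate block, with median-of-ratios factors or without Y30M replicate 1. Of the list of other matrix genes 15 were called, 14 at the adjusted p, 13 after TPM rescaling and 12 at a fold change of at least 2. With a library left out it was 13 or 14. At a score of at least 0.6, 0 of the 4 SOD3 sites were left, and 2 of the 3 peaks had an FDR of at most 0.05. With the replicate number as a block (pairing), CD48, CD84, IRS2 and MLH3 were called in addition and NQO1 was lost, and no other call of a named gene changed. The uncalled values that took the other sign were COL11A2 (0.23, with -0.2032 to 0.5941 over single libraries left out, below 0 without Y6M replicate 3 or Y30M replicate 2, and -0.0255 without both libraries numbered 3), SMTN (-0.13, with -0.3138 to 0.0498 over single libraries left out, 0.0454 under TPM and 0.1257 without both numbered 3) and HORMAD1 (0.16, with -0.533 to 0.6729 over single libraries left out and -0.0985 without both numbered 3). The cause was not tested. With 3 yaks an age, one library can decide a call, and peaks have no replicate values.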

Other observations

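Of the 27 matched pathway genes, 22 had at least 1 m6A peak called over both ages and 5 had none by name. A peak was listed for 44.3% of all 19477 genes tested and for 85.7% of the 2144 with a symbol. The 5 without a peak were SOD1, IGF1, IGFBPL1, FBLN1 and ADAMTSL1. All 5 matched genes of the fibrillar collagen list had a peak, with 4 each for COL5A1 and COL11A2, 3 for COL5A3 and 2 each for COL5A2 and P3H1. Among the other matrix genes, COL6A6 had 6 peaks and COL6A2 had 5. IRS2 had 5 peaks and HMOX1 had 3. Of 16 matched cell markers, 11 had a peak. The names came from tables of changed genes and of methylated peaks, which list genes for having a peak, and these shares are not those of the pathways as a whole.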
